A study of Mus musculus with 58 samples.

Results

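Cell cycle transcripts were followed here through the lineages of the embryonic mouse pancreas. The set held 42 genes listed for this purpose, 24 of them mitotic and 18 of them active around S phase, out of 19699 genes in the deposited table once the spike-in controls were set aside. All 42 were present in the table. The list was drawn from known cell cycle genes and applied no cut on measured values, but it was chosen with earlier results of these data known. Single cells had been sorted into 384-well plates and sequenced by SORT-seq, which counts molecules by a barcode on each captured transcript.

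Every embryo came from a pregnant female that expresses mip-gfp, a green fluorescent protein driven by the mouse insulin promoter, and the labels give no other allele, strain or treatment. Cells were sorted either as live cells, negative for a viability dye, or as MIP-GFP cells, gated on green fluorescence. The 7 experiments filled 15 plates: EP16 was of stage E18.5, EP17 and EP10 of stage E15.5, EP14 of stage E14.5, EP12 of stage E13.5, and both EP18 and EP11 of stage E12.5. The experiment was the replicate, so E13.5, E14.5 and E18.5 had no replicate of their own and p-values measure the spread between experiments, whose embryos the labels do not list. The titles of 12 of the 58 libraries give a stage other than their stage field, which was used here.

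Of 5760 matched wells, 4318 held at least 2000 transcripts and 500 genes, and 3804 of these fell into 10 lineages by marker genes that include no cell cycle gene. The cells outside the lineages numbered 514. Endocrine cells were taken by their hormone: insulin cells (1000) and glucagon cells (571) had at least 1% of transcripts from that hormone. That share also had to be at least 3 times that of any other hormone. Cells that passed no hormone gate were then taken by 2 factors. Those with Neurog3, the transcription factor that starts endocrine differentiation, and no Fev made up 143 cells. Those with Fev, a factor of later endocrine precursors, and no Neurog3 made up 376 cells. These cells were not free of hormone: hormone and digestive enzyme transcripts took a mean of 2.31% in Fev cells, and 5.63% in EP16. The other lineages were E12.5 epithelium (251 cells), tip cells with acinar enzyme genes (252), trunk cells with duct-like genes (166), mesenchyme (696), mesothelium (93) and immune cells (256). The mesothelial gate was the least clear of them: its median cell held 75% of the mesothelial markers and also 60% of the mesenchymal ones. Total transcripts per plate ranged from 1222637 to 9490716, with plate medians of 6919 to 27218 per cell. Reporter cells supplied 663 of the 1000 insulin cells and 531 of the 571 glucagon cells, but 2 of the 252 tip cells, so lineage and sort were closely tied. An extra E18.5 plate is labelled live, although the other plates with its plate number are MIP-GFP plates, and it held 291 insulin cells. If it was reporter-sorted, 954 of the 1000 insulin cells were, and its label could not be checked here.

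A dividing cell copies its DNA in S phase and separates the copies in mitosis, and it makes each phase's gene products in turn. Around S phase, E2F factors switch on the MCM helicase subunits (Mcm2 to Mcm7), the polymerase clamp Pcna, nucleotide enzymes such as Tyms, Rrm1 and Rrm2, and cyclin E. Before mitosis the MuvB core leaves the repressive DREAM complex and binds B-Myb and then FoxM1, and genes such as the kinases Cdk1 and Plk1, the B cyclins, topoisomerase Top2a and the ubiquitin enzyme Ube2c come on. In the pancreas the progenitor epithelium expands by division, while endocrine cells leave the cycle as they differentiate and beta cells later divide again.

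Both gene classes are known for promoter elements, and the members' promoters were read for them because the members moved together in the results that follow. The elements searched were the CHR (TTTGAA or TTCGAA), the CCAAT box (CCAAT) and the E2F element (TTTCCCGC or TTTGGCGC), each on both strands, and none of these words contains another. The window ran from 250 bases before to 50 bases after the RefSeq start on GRCm38.p6, and 35 of the 42 members had an entry. A CHR was present in 15 of 20 mitotic members with an entry (75%), against 21.7% of the 27025 genes in the table. The same 15 also held a CCAAT box, and the pair was present in 3 of 15 S-phase members (20%) and in 8.61% of all genes. The CCAAT box was common in both classes: 17 of 20 mitotic (85%) and 11 of 15 S-phase members (73.3%), against 41.1% of all genes. An E2F element was found in 5 of 15 S-phase members (33.3%), in 0 of the 20 mitotic members and in 1.8% of all genes. A match describes letters in the window only. The promoters of 3 mitotic members are shown because they carry both elements, with CHR and CCAAT letters in capitals (either strand):
Ccnb2 (chr9:70421505-70421804, minus strand): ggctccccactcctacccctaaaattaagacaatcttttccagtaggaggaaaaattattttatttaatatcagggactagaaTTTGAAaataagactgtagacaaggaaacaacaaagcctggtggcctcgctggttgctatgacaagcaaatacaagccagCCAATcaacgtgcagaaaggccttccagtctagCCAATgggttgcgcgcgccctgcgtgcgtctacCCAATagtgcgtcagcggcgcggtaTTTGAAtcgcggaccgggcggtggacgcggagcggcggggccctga
Cdk1 (chr10:69352863-69353162, minus strand): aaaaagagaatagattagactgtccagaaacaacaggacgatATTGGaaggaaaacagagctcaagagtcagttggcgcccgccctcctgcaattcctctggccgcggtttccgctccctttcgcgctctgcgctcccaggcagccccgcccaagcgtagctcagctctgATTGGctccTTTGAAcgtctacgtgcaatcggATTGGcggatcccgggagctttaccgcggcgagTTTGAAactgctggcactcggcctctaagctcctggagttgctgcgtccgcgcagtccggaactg
Plk1 (chr7:122159185-122159484, plus strand): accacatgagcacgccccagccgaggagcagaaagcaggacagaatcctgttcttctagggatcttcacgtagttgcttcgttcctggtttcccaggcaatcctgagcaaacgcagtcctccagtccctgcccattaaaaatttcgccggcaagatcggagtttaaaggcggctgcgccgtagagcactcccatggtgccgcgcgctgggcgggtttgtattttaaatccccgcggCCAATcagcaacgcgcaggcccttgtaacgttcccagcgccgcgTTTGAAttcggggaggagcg
A pair of S-phase promoters is shown with the E2F element in capitals:
Mcm6 (chr1:128359656-128359955, minus strand): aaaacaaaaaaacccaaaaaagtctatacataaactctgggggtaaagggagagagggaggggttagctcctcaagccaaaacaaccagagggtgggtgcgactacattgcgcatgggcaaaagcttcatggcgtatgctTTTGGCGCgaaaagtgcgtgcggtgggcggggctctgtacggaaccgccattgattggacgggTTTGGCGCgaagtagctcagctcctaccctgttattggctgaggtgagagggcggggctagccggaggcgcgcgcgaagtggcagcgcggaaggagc
Mcm5 (chr8:75109259-75109558, plus strand): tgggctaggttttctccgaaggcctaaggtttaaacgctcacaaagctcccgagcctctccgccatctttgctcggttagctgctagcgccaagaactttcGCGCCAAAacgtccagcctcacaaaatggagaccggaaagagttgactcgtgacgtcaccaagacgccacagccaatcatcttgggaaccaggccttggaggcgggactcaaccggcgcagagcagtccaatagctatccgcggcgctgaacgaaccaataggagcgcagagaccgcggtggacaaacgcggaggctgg
The Ccnb2 window held its CHR copies at positions -167 and 5, counted from the start with no position 0, and the Mcm6 window held E2F elements at -110 and -47.

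The share of cycling cells separated the lineages into a high and a low group. Each cell was thinned to 4000 transcripts and was called cycling with at least 4 mitotic or 8 S-phase transcripts. This left out 276 shallower cells of all 4318 kept, inside and outside the lineages. Over experiments with at least 10 such cells, the share was 90.3% ± 8.64 (SD, n = 4) in tip cells, 86.9% ± 5.39 (n = 2) in E12.5 epithelium and 69.1% ± 18.6 (n = 5) in trunk cells. Mesothelium stood at 62.4% ± 23.6 (n = 5), immune cells at 61.7% ± 8.17 (n = 6) and mesenchyme at 56.5% ± 15.3 (n = 6). Neurog3 cells came next, at 42.1% ± 7.92 (n = 4), and this share differed widely with the level of Neurog3 itself, as described further on. The low group was glucagon cells at 6.24% ± 7.80 (n = 7), Fev cells at 4.44% ± 5.01 (n = 5) and insulin cells at 2.56% ± 2.99 (n = 5). Neighbours in this order had overlapping ranges over experiments, apart from Neurog3 cells, whose lowest experiment stood at 30.4%, and the low group, whose highest stood at 20%. Within the low group the order was not firm. Without EP16 the mean was 3.95% in glucagon and 1.3% in insulin cells, and without EP14 it was 2.59% in Fev cells, all settings chosen after the data had been seen. Pooled over cells, the shares were 6.23% in Fev, 5.26% in insulin and 5.17% in glucagon cells. The calls depend on the thresholds: 185 more cells would be called with both thresholds 1 transcript lower and 106 fewer with both 1 higher. These counts were not split by lineage, and the 1317 cells called cycling include cells outside the lineages.

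**Figure D1:**
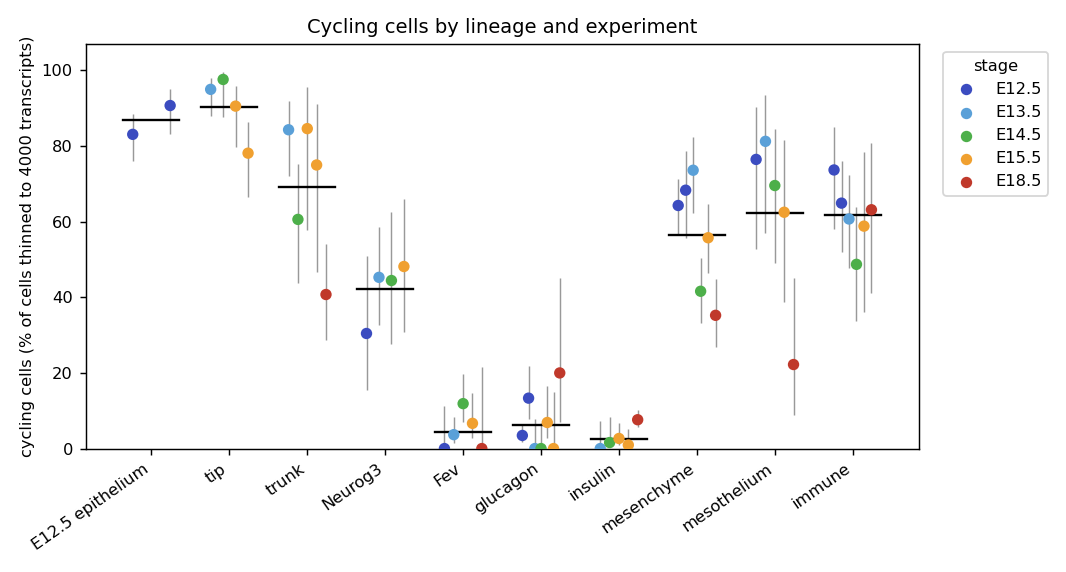
Percentage of cycling cells (y axis) in each lineage (x axis), with a point for each experiment of at least 10 thinned cells, coloured by stage. Grey bars are 95% Wilson intervals, which cover counting error only, and black lines are means over experiments. Neurog3 cells lie between 30.4% and 48.1%, above every Fev and insulin point.

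Within single experiments the epithelial order was the same for cycling cells. Tip exceeded trunk in 4 of 4 experiments, trunk exceeded Neurog3 in 3 of 3, and Neurog3 exceeded Fev in 4 of 4. The summed shares of transcripts did not all follow: tip exceeded trunk in 2 of 4 experiments for the mitotic and in 2 of 4 for the S-phase share, and trunk exceeded Neurog3 in 3 of 3 and 2 of 3. The 95% Wilson intervals of the cycling shares were apart in 1 of the 4 tip and trunk pairs, in 1 of the 3 trunk and Neurog3 pairs and in all 4 Neurog3 and Fev pairs. By experiment, tip cells were 95% cycling in EP12, 97.6% in EP14, 90.6% in EP10 and 78.1% in EP17. Trunk cells were 84.3% in EP12, 60.6% in EP14, 84.6% in EP10, 75% in EP17 and 40.7% in EP16. The trunk cycling share was thus lowest at E18.5 (95% interval 28.7 to 54.0, 54 cells), where no experiment had 10 tip cells. The trunk mitotic share of transcripts was lowest in EP17, 0.236% from 15 cells, against 0.294% in EP16. Neurog3 cells were 30.4% in EP11, 45.3% in EP12, 44.4% in EP14 and 48.1% in EP10. Fev cells were at 0 of 30 in EP11, which allows up to 10%, and at 3.68% in EP12, 11.9% in EP14, 6.67% in EP10 and 0 of 14 in EP16, which allows up to 21.4%. Glucagon cells were 3.46% in EP11, 13.3% in EP18 and 6.9% in EP10, at 0 of 45 in EP12, 0 of 52 in EP14 and 0 of 22 in EP17, and at 3 of 15 in EP16 (20%, 95% interval 7.05 to 45.2).

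Mesenchyme and mesothelium had their lowest shares at E18.5. Mesenchyme gave 64.3% and 68.3% in the E12.5 experiments, 73.6% at E13.5, 41.6% at E14.5, 55.8% at E15.5 and 35.2% at E18.5. Mesothelium gave 76.5% in EP11, 81.3% in EP12, 69.6% in EP14, 62.5% in EP10 and 22.2% in EP16, each from 16 to 23 cells. The immune cycling share did not follow that order: it stood at 63.2% at E18.5, between 48.7% at E14.5 and 73.7% in EP11. The E18.5 value rests on 12 of 19 cells (Wilson interval 41.04 to 80.85), after 9 of 28 were left out as too shallow. The summed immune shares of transcripts, without thinning, were low at E18.5. Among experiments with at least 10 immune cells, the S-phase share was lowest there, at 0.182%, with 0.234% at E14.5 next. The mitotic share was 0.196% at E18.5, above only the 0.167% of E14.5.

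The summed transcripts gave the same division without thinning. Mitotic members took 0.398% ± 0.0211 of transcripts (n = 2) in E12.5 epithelium, 0.381% ± 0.0383 (n = 4) in tip, 0.371% ± 0.137 (n = 5) in trunk and 0.254% ± 0.156 (n = 4) in Neurog3 cells. The share was 0.0408% ± 0.0351 (n = 5) in Fev, 0.031% ± 0.0241 (n = 7) in glucagon and 0.0178% ± 0.0163 (n = 5) in insulin cells. For S-phase members the tip stood at 0.348% ± 0.0736, the trunk at 0.321% ± 0.107 and Neurog3 cells at 0.237% ± 0.0564. Fev cells were at 0.0624% ± 0.028, glucagon cells at 0.0541% ± 0.0261 and insulin cells at 0.0318% ± 0.0032. The S-phase sum was 0.925 ± 0.222 times the mitotic sum in tip and 2.64 ± 1.36 times in insulin cells, though 0.758 times in insulin cells of E18.5. Hormone and digestive enzyme transcripts, which lower every other gene's share, took a mean of 8.7% in insulin, 6.17% in glucagon and 4.13% in tip cells and 0.163% in trunk cells.

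**Figure D2:**
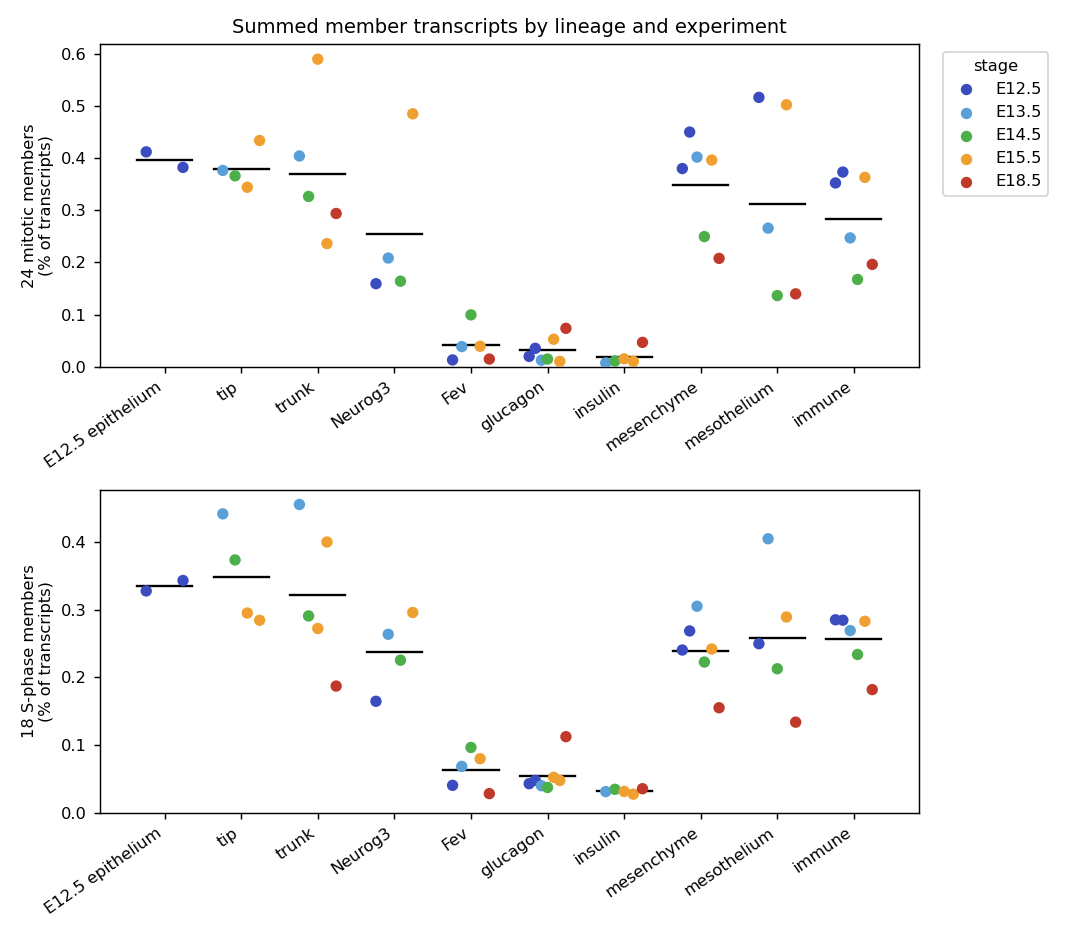
Percentage of all transcripts (y axes) from the 24 mitotic members (upper panel) and the 18 S-phase members (lower panel) in each lineage, 1 point per experiment coloured by stage, with black lines at the mean. Fev, glucagon and insulin cells lie below the other lineages in both panels, and the insulin S-phase points stay between 0.0272% and 0.0352%.

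Members differed in how much of their level remained in insulin cells. Pcna and Slbp, the protein that binds histone messenger RNA stems, made up 32.8% and 18.1% of the S-phase transcripts of insulin cells, against 26.9% and 5.59% in tip cells. Slbp stood at 193 ± 48.9 CPM (transcripts scaled to the same library total, SD, n = 4) in tip and 74.9 ± 20.1 (n = 5) in insulin cells, a ratio of means of 2.58. For Mcm5 the ratio was 61.5, from 234 to 3.8 CPM. Among mitotic members the centromere protein Cenpf had the smallest ratio, 3.22, and Aurkb, the kinase of the chromosomal passenger complex, the largest, 64.3. The Aurkb ratio rests on a low mean of 1.39 CPM in insulin cells. Median ratios were 31.5 over the 24 mitotic and 13.6 over the 18 S-phase members. Insulin cells had the lowest mean of any lineage for 21 of the 24 mitotic and 16 of the 18 S-phase members. The highest mean lay in E12.5 epithelium for 11 mitotic members and in tip for 8 mitotic and 7 S-phase members. SORT-seq counts transcript ends, so these values are not scaled by gene length.

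From trunk to Neurog3 cells, 20 of 41 tested members fell, most of them mitotic. Differences were tested with edgeR's quasi-likelihood test on summed counts per lineage and experiment, with the experiment as a block and Benjamini-Hochberg adjustment over all tested genes. In Neurog3 against trunk cells (3 experiments), 17 of 24 mitotic members fell and 3 of 17 tested S-phase members fell (Gins2, Mcm5 and Mcm7), with none higher. Over all 9134 genes tested, 5.96% were called lower and 8.12% higher. The log2 difference was below 0 for all 24 mitotic members (median -0.73) and for 16 of the 17 S-phase members (median -0.39). Whether the classes differ from each other was not tested. Without the experiment as replicate block none of the 41 members passed, DESeq2 called 6, and live plates alone gave 10, while 34 passed in the wells of the authors' smaller table, all lower. Leaving out EP12 left 7 and leaving out EP14 left 11. In sums of cells, fewer cycling cells and less RNA per cell cannot be told apart.

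Kif23, a kinesin of the midbody, had the largest difference of any member, -1.15 ± 0.18 (log2, SE; adjusted p = 0.000948), followed among S-phase members by the helicase factor Gins2 at -0.997 ± 0.24 (adjusted p = 0.0143). Ube2c stood at 409, 356 and 637 CPM in trunk and 201, 137 and 464 in Neurog3 cells of EP12, EP14 and EP10. It was lower in Neurog3 cells of all 3 experiments, although EP10 Neurog3 cells exceeded trunk cells of the other experiments, and it fell by 0.93 ± 0.16 (adjusted p = 0.00156). Top2a stood at 490, 318 and 753 CPM in trunk and 237, 172 and 626 in Neurog3 cells, a fall of 0.72 (adjusted p = 0.00565). Cdk1, Ccnb1, Mki67, the proliferation antigen, and Plk1 also passed, with log2 differences of -0.73, -0.71, -0.68 and -0.91, and so did Cdc20 and Bub1b, which act at the spindle checkpoint, at -0.97 and -0.94. Mcm6 (-0.47 ± 0.16, adjusted p = 0.0656), Pcna (-0.39, adjusted p = 0.0796), Tyms (-0.42), Rrm2 (-0.39), Ccne1 (-0.36), Uhrf1 (-0.65) and Ung (-0.77) did not pass.

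Some cell cycle inhibitors were higher at the same step. Cdkn1a, the inhibitor p21, averaged 822 CPM in Neurog3 and 80.2 in trunk cells, higher in 3 of 3 experiments with no overlap, a log2 difference of 3.27 ± 0.21 (adjusted p = 8.18e-07). Gadd45a and Gadd45g, stress-induced growth arrest genes, rose by 4.24 and 3.27. In all, 4 of 8 tested inhibitors were higher and none lower. Ccnd1, the cyclin D1 that opens the G1 exit, fell by 1.94 ± 0.20 (adjusted p = 3.71e-05), from 473 to 129 CPM, and Ccnd2 fell by 0.73. Rb1, the E2F repressor, was higher (1.57). Cdkn1c, the inhibitor p57, was at 674 against 528 CPM (adjusted p = 0.054) and Ccnd3 differed by 0.08 (adjusted p = 0.919). Among other replication genes 4 of 29 fell, Gmnn (-1.15) and Tk1 (-0.85) most, and among other mitotic genes 9 of 32 fell, with Kif2c at -0.96 and Racgap1 at -0.91.

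Within the Neurog3 cells the cycling share was lower where Neurog3 itself was higher. In each experiment the cells were ranked by Neurog3 CPM and split at the middle, a split chosen after the data had been seen, so the values are a description with no test. The cells below the middle were 59.7% cycling (40 of 67, 95% Wilson interval 47.7 to 70.6) and those above 27.0% (20 of 74, 18.2 to 38.1). The lower part was higher in each of 4 experiments: 45.5% against 16.7% in EP11, 61.5% against 29.6% in EP12, 69.2% against 21.4% in EP14 and 61.5% against 35.7% in EP10. By transcripts of Neurog3, 21 of the 30 cells with 2 to 4 transcripts, the least that the gate allowed, were cycling (70%, 95% Wilson interval 52.1 to 83.3), as were 12 of the 18 with 5 to 9 (66.7%, 43.7 to 83.7) and 27 of the 93 with 10 or more (29.0%, 20.8 to 38.9). Mitotic members took 0.391%, 0.449% and 0.135% of transcripts in these cells. Over all 163 trunk cells 64.4% were cycling, but 54 of them were from E18.5, where 40.7% were cycling. Only 5 Neurog3 cells were from that stage, so the pools differ in stage. In EP12, EP14 and EP10 trunk cells stood at 84.3%, 60.6% and 84.6%. The fall from trunk to Neurog3 was not tested without the cells near the gate. Median transcripts per cell were 19242 below and 15999 above the middle, and the part of this depth gap was not tested.

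**Figure D3:**
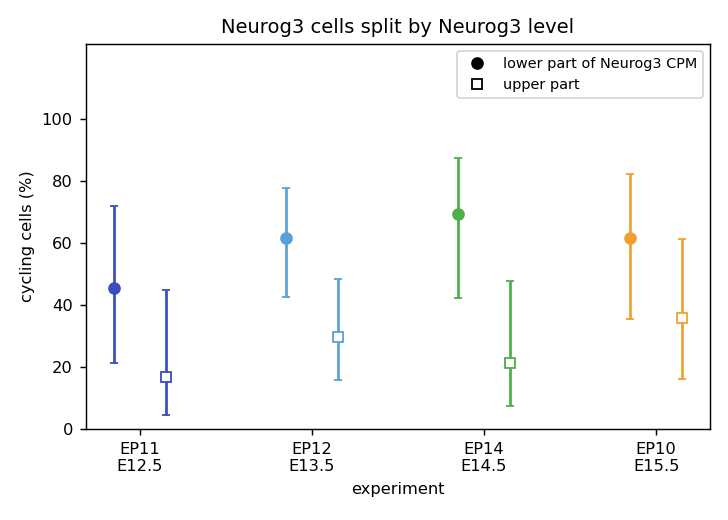
Percentage of cycling Neurog3 cells (y axis) in 4 experiments (x axis), for cells below (filled) and above (open) the middle of Neurog3 CPM within the experiment. Bars are 95% Wilson intervals. The filled point is the higher in each experiment, and the intervals overlap in all 4.

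Of 5 G1 genes, 4 differed between cycling and other Neurog3 cells in the same direction in 4 of 4 experiments. Ccnd2 was higher in cycling cells, by a median of 1.79 (log2 of CPM + 1, range 1.70 to 2.32), and so was Ccnd1 (median 1.56, range 0.38 to 2.74). Cdkn1a was lower in cycling cells (median -1.30, range -1.50 to -0.46), but the inhibitor Cdkn1c was higher (median 0.55, range 0.053 to 1.147). Ccnd3 was higher in 2 of 4 (median 0.67). Trunk cells also had less Cdkn1a in cycling cells in 3 of 3 experiments (median -1.04), but mesenchyme had more in 5 of 6 (median 0.68) from a mean level of 13.9 CPM. These are sums over cells of 1 experiment and were not tested.

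From Neurog3 to Fev cells the whole module dropped. All 39 tested members fell in Fev against Neurog3 cells (4 experiments, EP11, EP12, EP14 and EP10), 23 mitotic and 16 S-phase, while 17.6% of 9209 genes tested were called lower and 17% higher. Kif20a, Cdc6 and Ccne2 were too low to test. The filter did not need counts in both lineages, so members low in Fev cells could enter through the Neurog3 sums. The median log2 difference was -2.46 for mitotic and -2.04 for S-phase members, and the smallest was that of Slbp, -0.61 ± 0.19 (adjusted p = 0.0319). With MIP-GFP plates alone 14 of 35 tested members passed, all lower.

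The classes overlapped in size: mitotic members ranged from -2.97 to -1.80 and S-phase members from -2.53 to -0.61, and the difference between classes was not tested. Ccnb2, a B cyclin, stood at 55.8, 127, 94.7 and 191 CPM in Neurog3 cells of EP11, EP12, EP14 and EP10 and at 0, 12.4, 24.4 and 22.8 in Fev cells, a log2 difference of -2.97 ± 0.34 (adjusted p = 0.000144). Top2a went from 250, 237, 172 and 626 CPM to 6.8, 28.1, 102 and 42.8, with no overlap between the groups (-2.91 ± 0.50, adjusted p = 0.00161). Cdk1 went from 140, 223, 159 and 399 CPM to 6.8, 42.1, 88.8 and 38.8 (-2.46, adjusted p = 0.00117). The groups did not overlap for these 3 genes, and EP14 Fev cells were the highest of the Fev sums each time. Mki67 went from 152, 190, 119 and 452 CPM to 1.4, 46.6, 98.4 and 35.9 (-2.37, adjusted p = 0.00849). Ube2c went from 80.9, 201, 137 and 464 CPM to 13.54, 29.2, 113 and 27.3 (-2.40, adjusted p = 0.0052). Ccnb1 went from 42.4, 113, 71.2 and 203 CPM to 2.7, 15.4, 46.9 and 12.47 (-2.54, adjusted p = 0.00262). For Ube2c and Ccnb1 the EP14 Fev cells exceeded the EP11 Neurog3 cells, so those groups overlapped. Plk1 went from 49.7, 30.1, 41 and 103 CPM to 0, 6.6, 17 and 7.8 (-2.66), and Tpx2, a spindle assembly factor, fell by 2.80.

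Among S-phase members, Rrm2, the small subunit of ribonucleotide reductase, went from 82.9, 144, 79 and 199 CPM to 0, 21.3, 36.9 and 28.5 (-2.53 ± 0.41, adjusted p = 0.0012). Mcm6 went from 157, 272, 238 and 277 CPM to 28.5, 57.7, 73.1 and 76.5 (-2.05 ± 0.16, adjusted p = 1.68e-05). Mcm5 went from 73.6, 169, 138 and 176 CPM to 8.1, 30.1, 57.7 and 34.4 (-2.17). No Fev sum reached a Neurog3 sum for these helicase and nucleotide genes. Pcna went from 386, 723, 506 and 707 CPM to 110, 192, 278 and 230 (-1.57, adjusted p = 0.00015). Tyms, thymidylate synthase, went from 53.4, 79.9, 105 and 141 CPM to 9.5, 27.1, 43 and 34 (-1.75). Ccne1, cyclin E1, went from 8.8, 32.3, 32.6 and 18.6 CPM to 2.7, 6.2, 15.6 and 13.6 (-1.37 ± 0.38, adjusted p = 0.0194), with overlap. Mcm3 and Mcm4 fell by 2.50 and 2.38.

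Most inhibitors were lower in Fev than in Neurog3 cells. Cdkn1a fell by 1.41 (881 to 428 CPM, adjusted p = 0.00578), Cdkn1c by 1.76 (673 to 210 CPM) and Gadd45a by 2.68 (adjusted p = 2.15e-06). Of 8 tested inhibitors 5 fell and 2 rose. Ccnd1 fell by 2.53 ± 0.30 (116 to 21.8 CPM) while Ccnd2 differed by -0.56 (adjusted p = 0.192), and Mycn, a Myc family factor, fell by 4.45 from 36.4 to 1.34 CPM. Of other replication genes 22 of 23 fell (Pole -3.19, Chaf1b -2.52), and of other mitotic genes 23 of 25 (Aspm -3.29, Anln -2.94).

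**Figure D4:**
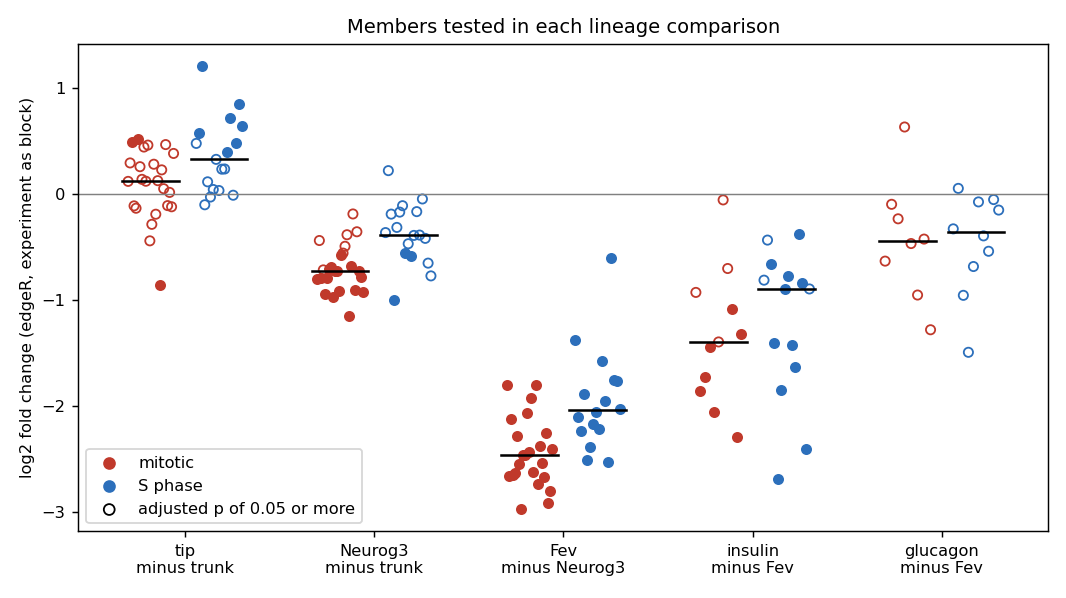
Log2 fold change (y axis) of each tested member in 5 comparisons (x axis), mitotic members in red and S-phase members in blue. Filled points have an adjusted p under 0.05 by edgeR, and black lines are medians. All 39 tested members lie below 0 in Fev minus Neurog3.

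Live-sorted cells had the higher cycling share among Neurog3 cells of 4 experiments and among Fev cells of EP10, EP14 and EP12. Neurog3 cells were cycling in 46.7% of 15 live and 0 of 8 MIP-GFP cells in EP11, 52.8% of 36 and 29.4% of 17 in EP12, 52.6% of 19 and 25% of 8 in EP14, and 62.5% of 16 and 27.3% of 11 in EP10. The live share was the higher in all 4 experiments, with overlapping 95% Wilson intervals in each. Fev cells varied more. In EP10, 5 of 9 live cells were cycling (55.6%, interval 26.7 to 81.1) and 0 of 66 MIP-GFP cells (upper end 5.5), so the intervals were apart. In EP14 they were 5 of 21 (23.8%, 10.6 to 45.1) and 7 of 80 (8.75%, 4.3 to 17.0), which overlap. In EP12 they were nearly equal, at 1 of 21 (4.76%) and 4 of 115 (3.48%), with mitotic shares of 0.0263% live and 0.0402% MIP-GFP. No Fev cell was cycling in EP11 (2 live, 28 MIP-GFP), EP16 (7 and 7) or EP17 (1 and 8). EP18 went the other way, with 0 of 1 live and 1 of 3 MIP-GFP cells. The part of the sort in the step from Neurog3 to Fev was not tested beyond the MIP-GFP fit given above.

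Insulin cells lay below Fev cells for most members that could be tested. Over 5 experiments, 7 of 11 mitotic and 11 of 14 S-phase members fell in insulin against Fev cells and none rose, where 9.49% of 10122 genes were called lower and 12.51% higher. The other 17 members were too low to test. The direction was not shared by every experiment: Top2a fell by 2.29 ± 0.55 (35.5 to 10.1 CPM, adjusted p = 0.00686) but was lower in 3 of 5. Top2a stood at 28.1, 102, 42.8, 0 and 4.4 CPM in Fev cells of EP12, EP14, EP10, EP17 and EP16 and at 2.9, 6.7, 2.8, 0.8 and 37.6 in insulin cells. The Fev sums of EP17 and EP16 held 11 and 15 cells. DESeq2 called 5 members, the fit without replicate block 6, MIP-GFP plates alone 5, and a single member passed in the wells of the authors' smaller table. Leaving out EP10 left 5, EP12 9 and EP14 6.

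Mcm6 fell in all 5 experiments, from 57.7, 73.1, 76.5, 11.6 and 17.5 CPM to 12.8, 15.46, 13.6, 11.6 and 15.8, a log2 difference of -1.85 ± 0.26 (adjusted p = 8.24e-05). The EP17 pair is equal at the precision printed. Mcm5 (-2.69 ± 0.45), Uhrf1 (-2.40), which keeps DNA methylation through replication, Cdk1 (-2.05), Birc5 (-1.86), the survivin of the passenger complex, Rrm2 (-1.63), Ube2c (-1.32), Tyms (-0.84) and Pcna (-0.77) also fell. In the wells of the authors' smaller table the Ube2c difference turned to 0.56 (adjusted p = 0.22). Ccne1 (-0.81, adjusted p = 0.126) did not pass, and Mki67, Ccnb1 and Plk1 were not tested. Cdkn1a fell again (-1.77 ± 0.15, 235 to 65.4 CPM, 5 of 5 experiments) while Gadd45g rose (1.25), and Ccnd1 fell by 1.52. Cdkn1c (-0.75, adjusted p = 0.101), Ccnd3 (-0.39) and Ccnd2 (0.00) did not pass. Among other G1 genes Cdk2 fell by 1.72. Other replication genes gave 8 lower and 1 higher of 17, with Pola1 at -2.84 and Tk1 at -2.53, and other mitotic genes 5 lower and 1 higher of 14, with Pbk at -2.28 and Kif22 at -1.53.

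No member passed the test between glucagon and Fev cells. Over 6 experiments edgeR called 0 of 18 tested members, with 24 too low to test, 5 had an unadjusted p under 0.05, and DESeq2 also called 0. All genes gave 5.07% higher and 5.11% lower of 9486. The median log2 difference was -0.45 for the 8 mitotic and -0.36 for the 10 S-phase members tested. Mcm5 (-1.49 ± 0.50, adjusted p = 0.0778), Ube2c (-1.28 ± 0.43, adjusted p = 0.0735), Mcm4 (-0.96), Mki67 (-0.95), Mcm6 (-0.68), Ccna2 (-0.63), Pcna (-0.40) and Tyms (-0.15) lay below 0 without passing. Without EP11, 5 members passed and without EP16 4, all lower. Ccnd2 rose by 1.10 (adjusted p = 0.00922), and Cdkn1a (-0.86) and Gadd45a (-1.07) fell in 6 of 6 experiments, while Ccnd1 (0.01) and Cdkn1c (-0.58, adjusted p = 0.172) did not pass.

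Some S-phase members were higher in tip than in trunk epithelium. Over 4 experiments, 7 of 17 tested S-phase members were higher in tip (Cdc6, Uhrf1, Rrm2, Ung, Cdc45, Tyms and Rrm1), as were Birc5 and Ccna2 among 24 mitotic members, and Kif23 was lower. All genes gave 16.5% higher and 14.9% lower of 8831, so the mitotic count lay below that background. DESeq2 called 3 members, the fit without replicate block 2, and the fit without EP14 3. Whether the S-phase and mitotic differences differ from each other was not tested.

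Cdc6, which loads the MCM helicase, averaged 62.2 CPM in tip and 32.5 in trunk cells and was higher in 4 of 4 experiments (1.20 ± 0.20, adjusted p = 0.000105). Rrm2 stood at 315, 220, 216 and 289 CPM in tip and 303, 153, 87.8 and 233 in trunk cells of EP12, EP14, EP10 and EP17, higher in each pair (0.71 ± 0.16, adjusted p = 0.00226). Uhrf1 rose by 0.85, Tyms by 0.48, Birc5 by 0.49 and Ccna2 by 0.52, and Kif23 fell by 0.86 ± 0.22 (adjusted p = 0.00484). Top2a (0.01), Cdk1 (0.12), Mki67 (0.23), Ccnb1 (0.26), Ube2c (0.38), Plk1 (0.46), Mcm6 (0.03), Mcm5 (0.32), Pcna (0.23) and Ccne1 (0.47) did not pass. The D cyclins parted: Ccnd1 fell by 1.77 ± 0.24 (438 to 117 CPM, adjusted p = 9.31e-06) and Ccnd2 rose by 1.01, with Ccnd3 at -0.43 (adjusted p = 0.372). Myc was higher in tip (3.33 ± 0.24, 118 against 16.7 CPM) and Mycn lower (-2.74 ± 0.22, 10.4 against 80.9 CPM), both without overlap. Cdkn1c (-1.11) and Gadd45a (-1.07) fell and Cdkn1a rose (0.87). Of the other replication genes 4 of 29 were higher and 1 lower (Fen1 0.98, Rfc4 0.65), and of the other mitotic genes 4 of 32 higher and 3 lower (Mybl2 1.08, Spc24 0.79).

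Mesothelium and mesenchyme, the layers around the epithelium, had close member levels. Of the 93 mesothelial cells, 59 had the next marker list at over 2/3 of the best, and the part of this in the close levels was not tested. Over 5 experiments Mcm7 was higher in mesothelium (0.54 ± 0.14, 212 against 139 CPM, adjusted p = 0.0155) and Ccne1 lower (-0.82 ± 0.19, 41.6 against 69.5 CPM, adjusted p = 0.00852), of 41 members tested. All genes gave 10.4% higher and 9.1% lower of 8884. No member passed without EP14 or without replicate block, and 6 passed without EP11, 4 without EP16 and 1 without EP12. Ccnb1 (-0.85), Aurka (-0.46), Aurkb (-0.44), Cdk1 (-0.33), Mki67 (-0.31), Plk1 (-0.24), Ube2c (-0.21) and Top2a (0.04) did not pass, nor did Cdc6 (-0.78), Ung (0.72), Rrm2 (0.68), Mcm6 (0.11), Mcm5 (0.04), Pcna (-0.05) and Tyms (-0.03). The G1 genes differed more: Ccnd1 (-1.49), Ccnd2 (-1.21), Cdkn1c (-1.73, 1078 against 3494 CPM), Gadd45g (-2.06) and Myc (-2.29) were lower and Mycn (2.24) higher in mesothelium. Gmnn (0.73) and Dut (0.79) were higher among 3 of 29 other replication genes, and 0 of 32 other mitotic genes passed. With a wider margin between marker lists the Gmnn difference turned to -0.17 (adjusted p = 0.92). Cdkn1a (1.06, adjusted p = 0.0776) and Ccnd3 (-0.59) did not pass.

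Across stages, members rose with embryonic day in insulin cells, and the calls rested on E18.5. With embryonic day as a number over 5 experiments, 7 of 11 mitotic members and 1 of 13 S-phase members rose in insulin cells and none fell (4.11% of 10409 genes higher, 1.38% lower). No member passed without EP16 or with the stage of the titles, 3 passed without EP10, 5 without EP14 and 14 without EP17. The largest slopes were those of Cenpa, the centromeric histone (1.01 ± 0.11 log2 per day, adjusted p = 0.00179), Ccnb2 (0.93) and Top2a (0.93), and Ccna2 (0.85), Rrm2 (0.67), Cdk1 (0.65), Kif11 (0.37) and Cenpf (0.34) also rose. Cenpa stood at 2, 2.1, 7.6 and 1.5 CPM in EP12, EP14, EP10 and EP17 and at 38.6 in EP16. Most S-phase members did not pass: Pcna stood at 97.5, 102, 113, 93 and 114 CPM (slope 0.11, adjusted p = 0.24). Slbp stood at 83.6, 96.3, 83, 68.1 and 43.6 CPM. Mcm6 (0.11), Mcm5 (0.31), Tyms (0.18), Ccne1 (0.19), Cdc45 (0.38), Ung (0.34) and Ube2c (0.41, adjusted p = 0.0552) did not pass.

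**Figure D5:**
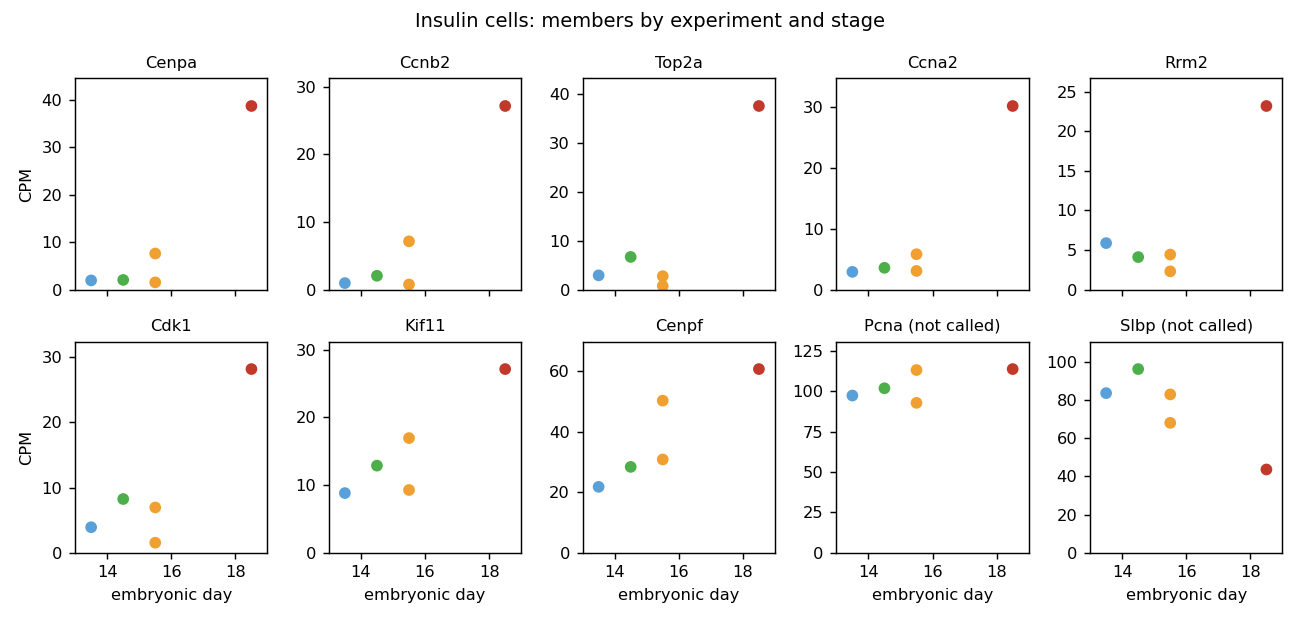
CPM (y axes, from 0) in insulin cells against embryonic day (x axis), 1 point per experiment coloured by stage, for the 8 members that rose and for Pcna and Slbp. The E18.5 point is the highest for each of the 8, while Pcna stays between 93 and 114 CPM.

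Cycling insulin cells were called mainly by their mitotic transcripts. At E18.5, 43 of 564 insulin cells were cycling (7.62%, 95% Wilson interval 5.71 to 10.1), 41 by mitotic and 10 by S-phase transcripts, against 0 of 49 in EP12, 1.59% in EP14, 2.67% in EP10 and 0.943% in EP17. The E18.5 plates gave like values: 7.53% on the MIP-GFP plate, 7.52% on the extra plate labelled live, and 2 of 19 cells on the other live plate. Over all stages, 39 of 49 cycling insulin cells (79.6%) passed by mitotic transcripts alone, as did 17 of 28 cycling glucagon cells (60.7%), but 50 of 215 cycling tip cells (23.3%) and 104 of 346 mesenchymal ones (30.1%). Pooled over cells, insulin cells called by mitotic transcripts had an S-phase share of 0.14%, against 0.0267% in the other insulin cells. Tip cells so called had 0.366%. The median cell, however, stood at 0.0283% in the 47 called insulin cells and 0.024% in the others, and at 0.302% in called tip cells. Ccnd2 also rose with day (1.04 ± 0.08, adjusted p = 0.000402), Ccnd1 rose (0.40) and Cdkn1c fell (-0.46, adjusted p = 0.012), Gadd45g rose (0.42), while Cdkn1a (0.01) and Ccnd3 (0.29) did not pass. Racgap1 (0.66) and Ncapd2 (0.40) rose among 4 of 14 other mitotic genes, and Pola2 (0.24) and Dut (0.22) were the 2 of 16 other replication genes that rose.

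No member passed in the other stage series. For glucagon cells (7 experiments) edgeR called 0 of 31 tested members, 12 had an unadjusted p under 0.05, DESeq2 called 4, and 28 slopes were above 0; all genes gave 1.54% higher and 1.09% lower of 10524. Without EP18 7 members passed and without EP14 1, all rising. Rrm2 (0.57 per day, adjusted p = 0.0737), Cdk1 (0.48), Nusap1 (0.48), Mki67 (0.47), Top2a (0.46), Mcm3 (0.37), Mcm5 (0.37), Mcm6 (0.34, adjusted p = 0.0518), Tyms (0.31), Ube2c (0.26), Ccnb1 (0.21), Pcna (0.19) and Ccne1 (0.11) were the named slopes. Top2a stood at 8.7, 27.5, 4, 4.7, 41 and 4.2 CPM in EP11, EP18, EP12, EP14, EP10 and EP17 and at 94.8 in the 15 glucagon cells of EP16. The single E18.5 sum was thus the highest, from few cells. Ccnd1 (0.61, adjusted p = 0.0158), E2f8 (0.88), Btg2 (0.28), Lig1 (0.54) and Clspn (0.82) rose, while Ccnd2 (0.32), Ccnd3 (0.34), Cdkn1a (-0.31) and Cdkn1c (-0.23) did not pass. With the stage of the titles the Ccnd1 slope turned to -0.75 (adjusted p = 0.9996), and without EP16 neither Ccnd1, Btg2 nor Lig1 passed.

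For mesenchyme (6 experiments) edgeR called 0 of 42 members, 7 had an unadjusted p under 0.05 and DESeq2 called 1; all genes gave 4.09% higher and 1.36% lower of 11160. All 24 mitotic slopes lay below 0, with a median of -0.12 per day, and Plk1 (-0.25 ± 0.08, adjusted p = 0.123), Aurka (-0.25) and Bub1 (-0.22) were the steepest. Mki67 (-0.11), Ccnb1 (-0.12), Cdk1 (-0.14), Ube2c (-0.20), Mcm5 (-0.10), Mcm6 (-0.08), Pcna (-0.10), Tyms (-0.03), Ccne1 (-0.03) and Top2a (-0.12) did not pass. Among S-phase members Ccne2 (0.27), Rrm2 (-0.20) and Mcm7 (-0.19, adjusted p = 0.0862) had the largest slopes. Top2a stood at 473 and 581 CPM in the E12.5 experiments, 415 at E13.5, 224 at E14.5, 565 at E15.5 and 244 at E18.5, without a steady order. Mycn fell by 1.47 per day (adjusted p = 0.00155) and the inhibitor Cdkn2c rose by 0.69, while Ccnd1 (-0.06), Ccnd2 (0.00), Ccnd3 (0.31), Cdkn1a (0.24) and Cdkn1c (0.20) did not pass.

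For trunk cells (5 experiments) edgeR called 0 of 41 tested members, 6 had an unadjusted p under 0.05 and DESeq2 called 2, against 1.53% higher and 0.391% lower of 9453 genes. Without EP10 or without EP17 2 members passed, both lower. Slopes lay below 0 for 33 members, and Mcm5 (-0.37 ± 0.09, adjusted p = 0.0719), Gins2 (-0.34, adjusted p = 0.0682), Mcm6 (-0.28) and Rrm2 (-0.28) were the steepest of the S-phase members and of those named. Mcm6 stood at 504, 315, 285, 411 and 166 CPM in EP12, EP14, EP10, EP17 and EP16. The E18.5 value was the lowest. With only sums of at least 20 cells 11 members passed, all lower. Kif20a (0.19), Ccnb1 (-0.19), Cdk1 (-0.18), Ube2c (-0.12), Plk1 (-0.06), Mki67 (-0.05), Top2a (-0.03), Pcna (-0.23), Ccne1 (-0.23) and Tyms (-0.15) did not pass. Of the D cyclins and inhibitors, Ccnd1 (0.07), Ccnd2 (0.29), Ccnd3 (-0.11), Cdkn1a (0.15) and Cdkn1c (-0.27) did not pass either. In the wells of the authors' smaller table the Cdkn1a slope turned to -0.93 (adjusted p = 0.0025).

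Genes outside the module were ranked by how closely their levels followed it. Over 50 sums of lineage and experiment, the non-member genes with the highest Spearman rho to the mitotic sum among 13115 genes included Espl1 (0.953), Dbf4 (0.951), Cdca2 (0.948) and Kif15 (0.947), followed by Ska3, Kif4, C330027C09Rik, Smc4 and Ckap2l. For the S-phase sum they included Mad2l1 (0.957), Exo1 (0.947) and Fignl1 (0.934), followed by Hat1, Prim1, Pbk, Dtl and Gmnn. The mitotic and S-phase sums themselves gave a rho of 0.856. The sums of 1 experiment share plates, so these values describe the libraries and carry no p.

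Cycling cells held more transcripts. In 31 pairs of lineage and experiment with at least 5 cells of each kind, the median transcripts of cycling cells exceeded those of other cells in 30, by a median ratio of 1.36 (range 0.583 to 2.42). The exception was the glucagon cells of EP18, at 7337 against 12594 transcripts. The part of depth in the cycling calls beyond the thinning was not tested.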

How the data were processed

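The authors deposited estimated counts of transcripts per gene and well, made by SORT-seq per the labels' protocols; judged from the values alone, they are molecule counts corrected for barcode collisions, so they need not be whole. BWA, Seurat and mm10 are named in the submitters' processing notes, with versions not given in the sources used here. Of 7296 wells, 1536 matched no labelled sample and were not used. The 89 spike-ins were left out of all totals.

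Wells with at least 2000 transcripts and 500 genes were kept, and lineages were set by marker genes: at least 3 markers of the best list, a hormone gate of 1% and at least 2 transcripts for Neurog3 or Fev. No doublet caller was run, and a setting without the 8 wells that held over 5 plate medians of transcripts was tried. Sums per lineage and experiment (at least 10 cells) were rounded to whole numbers and tested in edgeR 4.0.16 (R 4.3.3; TMM, filterByExpr, quasi-likelihood test, adjusted p threshold 0.05). The experiment was a block in comparisons of lineages, because both sums come from the same experiment. The block does not adjust for sort: MIP-GFP plates held 82.7% of Fev, 32.9% of Neurog3 and 2.41% of trunk cells. The stage slopes have no block. In comparisons of lineages a gene could pass the filter through the sums of 1 lineage. Shares and promoters were computed in python 3.11.15, and scripts were tested on simulated counts. Wilson intervals have a confidence level of 95%, floors are 3 counts, and both cover counting error only, since cells of an experiment share their source.

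Named in each comparison were 12 fixed members, the 3 mitotic and 3 S-phase members with the largest log2 change, 5 G1 genes and the 2 largest called genes of each other list, where tested. The members and lists were chosen with earlier results of these data known. Alternatives were DESeq2 1.42.0, other size factors, filters, gates, plates, stages and wells, and each experiment left out. The alternative without hormone and digestive enzyme genes, and mean cycling shares without each experiment, were chosen after seeing the data. Some of the genes most like the module are not reported here.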

Additional observations from a re-analysis of the deposited data

Results flagged for a closer look

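Of 27 groups of lineage and measure with enough experiments, 3 had an experiment far from the others, and chance gives about 1 in 20 such groups. In Neurog3 cells, the mitotic share of transcripts was 0.4857% in EP10, against 0.159% to 0.209% in the other 3 experiments. In glucagon cells, the S-phase share was 0.1121% in EP16, from 15 cells, against 0.0371% to 0.0521% in the other 6. In insulin cells, the mitotic share was 0.0465% in EP16, against 0.00698% to 0.0149% in the other 4.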

How the results depend on the processing

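The number of members called depended on the setting in every comparison. With DESeq2 it was 6 for Neurog3 minus trunk (20 in edgeR), 5 for insulin minus Fev (18), 3 for tip minus trunk (10), 1 for the mesenchyme slope (0), 4 for the glucagon slope (0) and 2 for the trunk slope (0). Without a filter on low counts it was 34 for insulin minus Fev, 12 for glucagon minus Fev (0), 16 for tip minus trunk, 5 for mesothelium minus mesenchyme (2), 20 for the insulin slope (8), 11 for the glucagon slope and 2 for the trunk slope. In the wells of the authors' smaller table it was 34 for Neurog3 minus trunk, 24 for Fev minus Neurog3 (39), 1 for insulin minus Fev, 1 for glucagon minus Fev, 6 for tip minus trunk, 5 for the insulin slope, 1 for the glucagon slope and 11 for the trunk slope. Sums of at least 20 cells gave 30 for insulin minus Fev, 3 for glucagon minus Fev and 11 for the trunk slope. With no replicate block it was 0 for Neurog3 minus trunk, 6 for insulin minus Fev, 2 for tip minus trunk and 0 for mesothelium minus mesenchyme, and 37 for Fev minus Neurog3 and 0 for glucagon minus Fev. Live plates alone gave 10 for Neurog3 minus trunk, and MIP-GFP plates alone 14 for Fev minus Neurog3 and 5 for insulin minus Fev. The stage of the titles gave 0 for the insulin slope, and a wider margin between marker lists 2 for the trunk slope.

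Leaving out each experiment in turn gave 7 to 19 for Neurog3 minus trunk, 33 to 41 for Fev minus Neurog3, 5 to 20 for insulin minus Fev, 0 to 5 for glucagon minus Fev, 3 to 14 for tip minus trunk, 0 to 6 for mesothelium minus mesenchyme, 0 to 14 for the insulin slope, 0 to 7 for the glucagon slope, 0 to 2 for the trunk slope and 0 for the mesenchyme slope. Of the values of named genes under these settings, 2851 kept their side of the threshold, 239 lost the call and 133 gained one. A further 4 values reversed direction with a call in the main or the other fit. Any change of direction with no call in either fit is counted among the 2851. In the smaller table the reversals were Ube2c in insulin minus Fev (0.563) and Cdkn1a in the trunk slope (-0.9255). With the wider margin it was Gmnn in mesothelium minus mesenchyme (-0.1675). With the stage of the titles it was Ccnd1 in the glucagon slope (-0.7466). The cause of these changes was not tested.

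Cycling shares of all cells of a lineage ran from 5.17% to 90.0%, from 15.7% to 98.8% with thresholds of 2 and 4, from 2.21% to 74.5% with 8 and 16, and from 4.46% to 89.5% without hormone and digestive enzyme genes, a setting chosen after seeing the data. No fit was possible for mesothelium minus mesenchyme with sums of at least 20 cells, or for it and the mesenchyme slope in the smaller table.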
